A study of Rattus norvegicus with 8 samples.

Results

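The genes described here are 47 genes of the cell cycle and DNA replication. The list is defined by gene names and not by a cut on values of these arrays. It was chosen, however, with earlier results of these data known. The genes were found by matching the gene name of every non-control spot on the array. Of the 47, 46 were named on the array, among 26269 gene names there, and 41 were bright enough to be tested, among 17364 genes tested. They are grouped by role: 13 genes of S phase and DNA replication (11 tested), 21 of G2 phase and mitosis (18 tested), 9 of the G1 cyclins, kinases and the Rb-E2F switch (8 tested), and 4 inhibitors of cyclin-dependent kinases (all tested).

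Whole pituitaries were taken from nursing Wistar rat dams on postpartum day 7, from 4 dams exposed to TCDD and 4 control dams, and messenger RNA of each was read on its own Agilent rat array in a single colour. TCDD is a dioxin. It activates AhR, the aryl hydrocarbon receptor, a transcription factor that needs a bound ligand. Dose and day of exposure are not given in the labels used here, nor is more said about the sampling than 4 rats a group, so a p-value here speaks only of the spread among these 8 samples. All 4 TCDD arrays lay on one slide and all 4 control arrays on another, so slide and exposure cannot be told apart.

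The cell cycle is driven by kinases that are active only when bound to a cyclin. In G1, cyclin D with Cdk4 and cyclin E with Cdk2 phosphorylate the retinoblastoma protein Rb1, which releases E2F transcription factors, and these switch on the genes of DNA replication. Later, Cdk1 with cyclins A and B drives entry into mitosis, and genes of this phase are kept silent in resting cells by the DREAM complex, which binds a promoter element called the CHR. The pituitary of an adult rat renews its cells slowly, and its prolactin cells are known to proliferate in pregnancy and under oestrogen.

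Promoter windows of 3 mitosis genes and 3 S phase genes are shown because these 2 groups are followed apart below and are known to be switched on through different elements. The windows are the 120 bases before the annotated start, 5′ to 3′ on the gene's own strand, from RefSeq on GRCr8. In the mitosis genes capitals mark the CHR (TTTGAA) and the CCAAT box (CCAAT), read on both strands. In the S phase genes capitals mark only E2F letters, leaving any CCAAT box in lower case (E2F: TTCCCGC or TTCGCGC or TTGCCGC or TTGGCGC, both strands), and a run longer than 7 capitals is 2 overlapping matches on opposite strands.
Cdk1 (chr20:19265173-19265292, plus strand): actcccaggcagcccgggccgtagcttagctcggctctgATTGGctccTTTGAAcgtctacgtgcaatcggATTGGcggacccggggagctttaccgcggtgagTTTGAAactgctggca
Top2a (chr10:84473094-84473213, minus strand): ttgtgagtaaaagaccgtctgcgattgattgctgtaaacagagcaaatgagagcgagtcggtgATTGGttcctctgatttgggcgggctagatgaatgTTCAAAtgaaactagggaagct
Cdc20 (chr5:137255800-137255919, minus strand): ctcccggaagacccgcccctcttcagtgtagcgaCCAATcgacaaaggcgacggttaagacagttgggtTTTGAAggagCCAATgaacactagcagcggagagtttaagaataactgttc
Tyms (chr9:120776084-120776203, minus strand): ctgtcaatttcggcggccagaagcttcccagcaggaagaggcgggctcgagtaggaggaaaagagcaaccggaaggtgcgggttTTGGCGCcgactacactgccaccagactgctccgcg
Mcm5 (chr19:13488693-13488812, plus strand): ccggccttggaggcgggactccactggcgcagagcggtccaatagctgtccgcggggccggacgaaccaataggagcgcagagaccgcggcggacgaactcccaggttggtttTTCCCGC
Gins1 (chr3:160184800-160184919, plus strand): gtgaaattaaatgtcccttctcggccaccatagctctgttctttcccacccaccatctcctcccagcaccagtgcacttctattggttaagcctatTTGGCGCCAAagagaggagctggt

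RefSeq windows of 300 bases, from 250 before to 50 after the start, were at hand for 36 of the 47 genes. Among mitosis genes 11 of 18 windows held a CHR (61.1%), and 10 of 18 held both a CHR and a CCAAT box (55.6%). Of 10 S phase windows, 1 held a CHR and 0 held both. The CCAAT box was common in both groups, in 15 of 18 mitosis windows (83.3%) and 7 of 10 S phase windows. E2F letters were in 9 of 10 S phase windows (90.0%) and 3 of 18 mitosis windows (16.7%). Over all 27457 windows in the RefSeq table the shares were 18.1% for the CHR, 37.7% for the CCAAT box, 7.25% for both and 10.01% for E2F. Such matches are a description of the letters and show no binding.

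Every array was of similar brightness. The 75th percentile of signal ran between 765.5 and 931.8, 71.1% to 73.9% of 42877 non-control spots were well above background, and 0 spots were saturated. Prl, Gh1, Pomc and Cga, the hormone genes that define anterior pituitary cells, lay between 7.70 and 8.72 log2 units above each array's 75th percentile on all 8 arrays. Tshb, Lhb and Fshb, the other 3 measured, lay between 0.48 and 7.78 above it, and Fshb differed by -0.71 without passing (limma, adjusted p = 0.38). All 6 measured AhR targets were higher in TCDD pituitaries, and Cyp1a1 and Cyp1a2 passed the test across all genes (limma, adjusted p = 0.028 and 0.029). Cyp1a1, Cyp1a2 and Ahrr were well above background on 4 TCDD arrays and 0 control arrays. They passed the filter on dim probes only through the TCDD arrays, so their direction is no independent check of the exposure. Levels below are log2 of the processed signal minus the array's 75th percentile, and a difference is the TCDD mean minus the control mean on that scale.

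No member passed the test across all genes at an adjusted p of 0.05 (limma, Benjamini-Hochberg over 17364 genes), which 14 genes or 0.0806% of all genes did. At an unadjusted p under 0.05, 6 of the 41 were higher in TCDD pituitaries (14.6%) and 0 lower, against 7.76% of all genes higher and 2.95% lower. These 6 were Tyms and Mcm3 of S phase, Cdc25b and Aurkb of mitosis, and Ccne1 and E2f1 of the G1 group. The TCDD mean lay above the control mean for 36 of 41 members (87.8%), with a median difference of 0.23, against 56.4% and a median of 0.02 over all genes. Members share regulation and are not independent, so these shares carry no test. In whole tissue, a different number of cycling cells and a different amount of RNA per cell cannot be told apart.

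**Figure D1:**
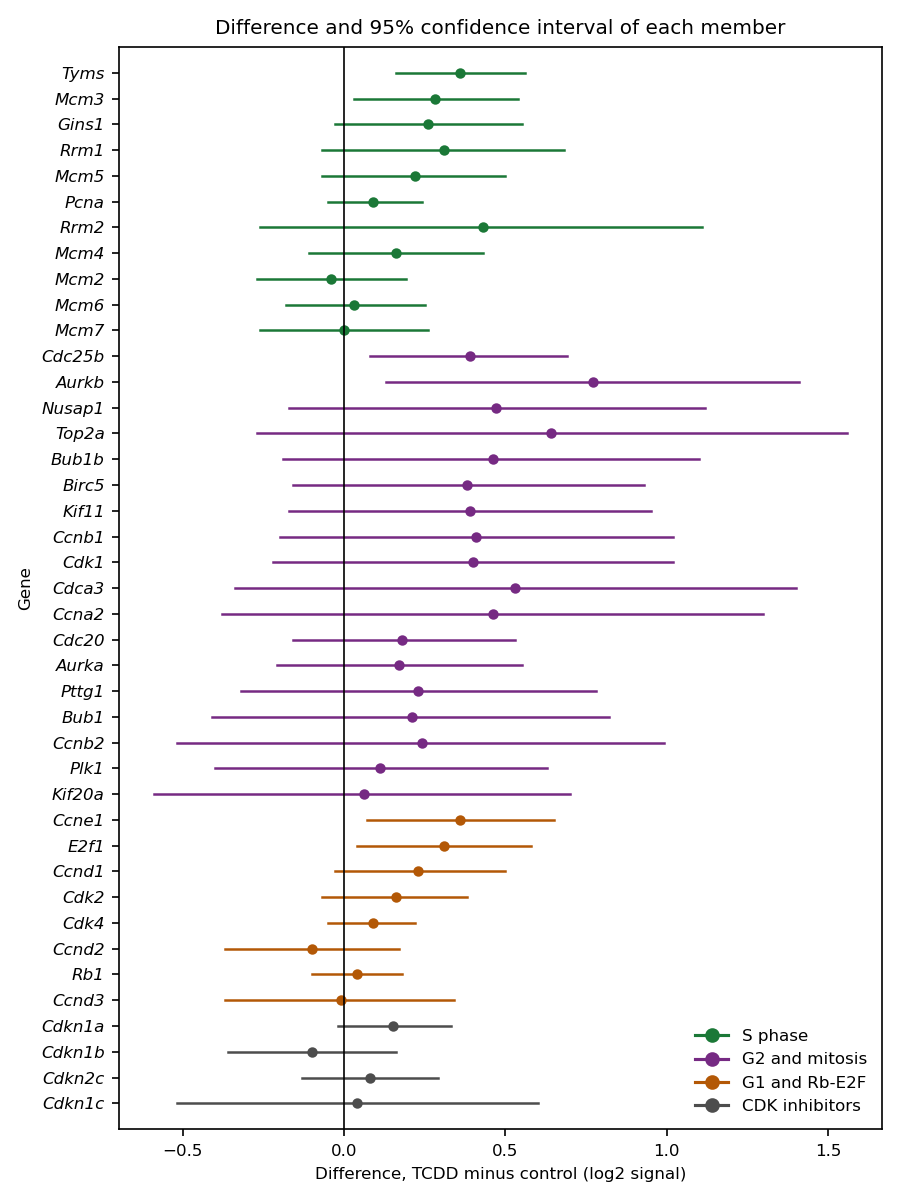
Difference in log2 signal, TCDD minus control, of the 41 tested genes (points) with 95% confidence intervals from limma (lines), grouped by role and ordered by p within each role. Intervals of 6 genes lie wholly above 0 before adjustment, and those of the mitosis genes are the widest as a group.

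Among the S phase genes, the TCDD mean was above the control mean for 9 of 11, with a median difference of 0.22 and a range of -0.04 to 0.43 (limma, adjusted p 0.26 to 1). Tyms, thymidylate synthase, which makes the thymidine nucleotide for DNA, had log2 levels of -3.21, -3.14, -3.15 and -3.04 in TCDD pituitaries, against -3.71, -3.49, -3.36 and -3.42 in control pituitaries. Every TCDD array lay above every control array, and Tyms was the 1 member of 41 (2.44%) whose groups did not overlap, against 7.10% of all genes and 5.18% in this direction. Its difference was 0.36 ± 0.09 (SE), a 1.28-fold higher signal, with an adjusted p of 0.26 in limma. An exact two-sided permutation test gave p = 0.029, the smallest that 4 against 4 arrays allow. The Tyms probe lies at chr9:112605733-112605792 of rn4, minus strand, per the deposited files.

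The minichromosome maintenance (MCM) proteins form the helicase that opens DNA at replication origins, and their 6 genes differed by -0.04 to 0.28. Mcm3 had log2 levels of -1.93, -1.99, -2.07 and -2.14 in TCDD pituitaries, against -2.04, -2.25, -2.43 and -2.53 in control pituitaries. Control replicate 1 was higher than TCDD replicates 3 and 4, and the difference was 0.28 ± 0.11 (SE; limma, adjusted p = 0.43). For Mcm5 the levels were -3.99, -4.04, -3.81 and -4.10 with TCDD, against -3.90, -4.35, -4.14 and -4.42 in controls. Here control replicate 1 exceeded 3 of the 4 TCDD arrays, and the 95% interval of the difference of 0.22 ran from -0.07 to 0.50. The differences of Mcm4, Mcm6, Mcm7 and Mcm2 were 0.16, 0.03, 0.00 and -0.04, with intervals that all held 0. These are from the brightest probe of each gene, and a dimmer second probe of Mcm4 gave 0.42 ± 0.09 (SE). For Mcm7 the interval was -0.26 to 0.26. The sign of Mcm6 turned under each of the 4 other scalings of the arrays.

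Gins1, a subunit of the GINS complex that works with the MCM helicase at the fork, was measured on 10 spots. Its log2 levels were -4.13, -4.22, -4.06 and -4.28 in TCDD pituitaries, against -4.14, -4.34, -4.49 and -4.74 in control pituitaries. All TCDD arrays lay above control replicates 2, 3 and 4, while control replicate 1 fell among them (difference 0.26 ± 0.13, SE). Rrm1 and Rrm2 encode the subunits of ribonucleotide reductase, which makes deoxynucleotides. Rrm1 had levels of -5.24, -5.00, -4.73 and -5.20 with TCDD, against -5.11, -5.10, -5.60 and -5.56 in controls, a difference of 0.31 ± 0.16 (SE). Control replicates 1 and 2 lay inside the TCDD range. Rrm2 differed by 0.43 with an interval of -0.26 to 1.11, the widest of the 11.

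Pcna, the sliding clamp that holds DNA polymerase on its template, had log2 levels of 0.72, 0.87, 0.85 and 0.81 in TCDD pituitaries, against 0.75, 0.78, 0.73 and 0.62 in control pituitaries. The groups overlapped through TCDD replicate 1, and the difference of 0.09 had an interval of -0.05 to 0.24. Cdc6 and Cdt1, which load the MCM helicase, were too dim to test: Cdt1 was well above background on 0 of 8 arrays, and Cdc6 on 0 TCDD arrays and 1 control array.

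All 18 tested genes of G2 phase and mitosis had a TCDD mean above the control mean, with differences between 0.06 and 0.77 and a median of 0.39, and none passed the test (limma, adjusted p 0.38 to 0.97). With normexp background correction and quantile normalization together, called normexp below, 17 of 18 did, Kif20a being the exception, and the median was 0.16. Array values within a group were spread more widely than for other genes: the median within-group SD was 0.44 for these 18, 0.17 for the S phase genes and 0.15 for all genes. The comparison was not matched for signal level. Levels of these 18 ran from percentile 3.5 (Bub1b) to 63.2 (Cdc25b) of all genes tested.

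Cdc25b, a phosphatase that activates Cdk1 at mitotic entry, had log2 levels of -0.43, 0.18, 0.14 and -0.19 in TCDD pituitaries, against -0.45, -0.47, -0.52 and -0.41 in control pituitaries. The control values had an SD of 0.05, and 3 of 4 TCDD values were above them, while TCDD replicate 1 was among the controls. The difference was 0.39 ± 0.13 (SE; limma, adjusted p = 0.38), and a second kept probe gave 0.49 ± 0.15 (SE).

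Aurkb, a kinase of the chromosomal passenger complex that corrects spindle attachment, had log2 levels of -4.67, -4.79, -4.44 and -4.04 in TCDD pituitaries, against -4.57, -5.07, -5.54 and -5.82 in control pituitaries. Its difference of 0.77 ± 0.28 (SE) was the largest among the 41 genes (limma, adjusted p = 0.41), and control replicate 1 was higher than TCDD replicates 1 and 2. With normexp background correction and quantile normalization together it was 0.20. Aurkb was highest on TCDD replicate 4, the array on which most mitosis genes were lowest among the TCDD arrays.

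Survivin, encoded by Birc5, belongs to the same passenger complex. Its log2 levels were -3.86, -3.71, -3.70 and -4.56 in TCDD pituitaries, against -3.81, -4.55, -4.51 and -4.48 in control pituitaries. TCDD replicate 4 lay at the level of 3 controls and control replicate 1 at the level of 3 TCDD arrays, giving a difference of 0.38 with an interval of -0.16 to 0.93.

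The same exchange of 1 array on each side was seen in Nusap1 and Top2a. Nusap1, a microtubule-binding protein of the spindle, had log2 levels of -2.67, -2.50, -2.46 and -3.61 in TCDD pituitaries, against -2.76, -3.42, -3.44 and -3.53 in control pituitaries. Top2a, the topoisomerase that untangles sister chromatids, had levels of -3.71, -3.59, -3.58 and -5.07 with TCDD, against -3.86, -4.69, -4.78 and -5.20 in controls. In both genes TCDD replicates 1 to 3 and control replicate 1 were the 4 highest arrays. The differences were 0.47 ± 0.28 (SE) for Nusap1 and 0.64 ± 0.40 (SE) for Top2a, whose interval ran from -0.27 to 1.56.

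Bub1b, a spindle checkpoint kinase, was dim, and was well above background on 4 of 4 TCDD arrays and 2 of 4 control arrays. Its log2 levels were -5.62, -5.29, -5.42 and -6.06 in TCDD pituitaries, against -5.54, -6.81, -5.81 and -6.06 in control pituitaries. The groups overlapped, and the difference was 0.46 ± 0.28 (SE).

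Cdk1, the mitotic kinase itself, is shown because its 10 spots give each array a well-measured value, and it was picked after its values were seen. It had log2 levels of -0.90, -1.02, -0.83 and -1.75 in TCDD pituitaries, against -1.0, -1.55, -1.48 and -2.09 in control pituitaries. Spots within an array had an SD of 0.03 to 0.08, while the arrays of a group had an SD of 0.43 with TCDD and 0.45 in controls. Its difference was 0.40 ± 0.27 (SE).

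For the other tested mitosis genes only the differences are given. Cyclins Ccnb1, Ccna2 and Ccnb2, the partners of Cdk1, differed by 0.41, 0.46 and 0.24. Kif11 and Kif20a, motor proteins of the spindle and of cytokinesis, differed by 0.39 and 0.06. Cdc20, which activates the anaphase-promoting complex, differed by 0.18, and Pttg1, the securin that this complex destroys, by 0.23. The kinases Plk1, Bub1 and Aurka differed by 0.11, 0.21 and 0.17, and Cdca3, which triggers mitotic entry, by 0.53. All these intervals held 0. Cenpf and Tpx2 were too dim to test and Mki67, the gene of the Ki-67 proliferation antigen, was not named on the array.

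**Figure D2:**
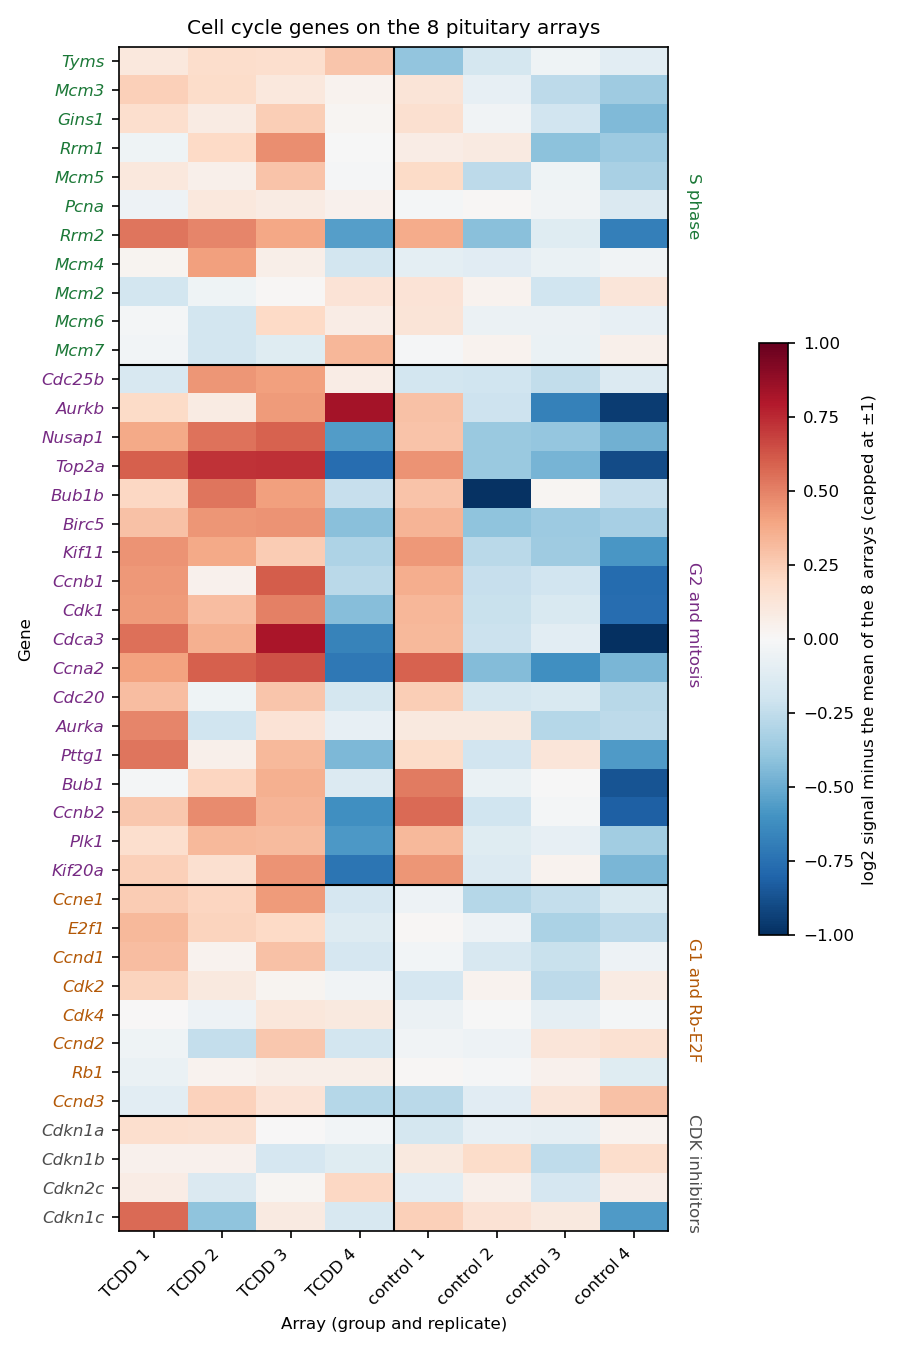
Log2 signal of the 41 genes on each array, relative to that gene's mean over 8 arrays (colour, capped at 1 either way), with TCDD arrays left and control arrays right of the line. In the mitosis block, TCDD replicates 1 to 3 and control replicate 1 are mostly above the mean, and TCDD replicate 4 and control replicates 2, 3 and 4 mostly below it.

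Taken per array, the mitosis genes ordered the samples differently from the exposure. Averaged over the 18 genes and set relative to the 8-array mean, log2 levels were 0.32, 0.30, 0.45 and -0.35 on the TCDD arrays, against 0.33, -0.26, -0.22 and -0.57 on the control arrays. TCDD replicate 4 lay below 3 of the 4 control arrays, and control replicate 1 above 3 of the 4 TCDD arrays. The 11 S phase genes averaged 0.08, 0.12, 0.17 and 0.02 with TCDD, against 0.06, -0.09, -0.14 and -0.22 in controls, so their arrays lay closer together and the groups overlapped only through control replicate 1 and TCDD replicate 4. A test of mitosis against S phase genes was not made.

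The pattern was then counted, having been picked after the values were seen, and it carries no test. TCDD replicates 1 to 3 and control replicate 1 were the 4 highest arrays for 13 of 18 mitosis genes, 4 of 11 S phase genes, 3 of 8 G1 genes and 0 of 4 inhibitors. Over all genes 212 of 17364, or 1.22%, had this order. Among 41 measured mitosis genes outside the 47, 15 had it (36.6%), including Cep55, Ttk, Ube2c, Kif23 and Prc1. Of 32 measured S phase genes outside the 47, 1 had it. TCDD replicate 4 was the lowest TCDD array for 15 of 18 mitosis genes, against 28.3% of all genes, and control replicate 1 the highest control array for 17 of 18, against 19.2% of all genes.

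Without TCDD replicate 4 the median difference of the mitosis genes was 0.56, and without control replicate 1 it was 0.57. Leaving out control replicate 4 gave 0.24. An unadjusted p under 0.05 in limma was then held by 16 of 41 members without TCDD replicate 4, all higher, against 6.88% of all genes. Without control replicate 1 it was held by 13, all higher, against 5.75% of all genes. These 2 arrays were singled out by their levels of these genes. Leaving either out therefore widens the difference by choice, and the counts carry no test. Without TCDD replicates 1, 2 and 3 in turn, 4, 3 and 1 members were higher at that level. Without control replicates 2, 3 and 4, they numbered 5, 3 and 4. Without TCDD replicate 3 or control replicate 3, 1 member was lower, against 568 and 498 of 17364 genes. Over all genes, 1055 to 1416 of 17364 were higher in these 6 fits. With TCDD higher, groups did not overlap for 9 of 41 members without TCDD replicate 4, against 7.67% of all genes. Without control replicate 1 there were 5 such members, against 6.66% of all genes. The 9 were Tyms, Rrm2 and Mcm4 of S phase, Top2a, Nusap1 and Cdca3 of mitosis, and Ccne1, E2f1 and Ccnd1 of the G1 group. The 5 were Tyms, Mcm3, Mcm5 and Gins1 of S phase and Aurkb of mitosis. No member passed at an adjusted p of 0.05 in limma under any of these. TCDD replicate 4 and control replicate 1 were both kept. The 75th percentile of signal was 897.0 on TCDD replicate 4 and 931.8 on control replicate 1, the highest of its group in each case.

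Other values of the arrays are set beside these levels. Control replicate 4, lowest in mitosis genes, also had the smallest share of spots well above background, 71.1%, whereas TCDD replicate 4 had the largest, 73.9%. All 7 measured erythrocyte markers were higher with TCDD. Their mean was -0.05, 0.60, 0.45 and 0.46 on the TCDD arrays, against -0.54, -0.59, -0.55 and 0.23 on the control arrays, with Hbb, Alas2 and Slc4a1 well above background on every array. That order differs in part from the mitosis order: TCDD replicate 4 and control replicate 4 were high in erythrocyte markers and low in mitosis genes. TCDD replicates 2 and 3 were high in both, and control replicates 2 and 3 low in both. Means of 10 leukocyte markers ran from -0.13 to 0.23 on the TCDD arrays and from -0.13 to 0.02 on the control arrays, with 6 of 10 higher with TCDD. Among them the neutrophil gene Mpo was 0.73 higher with TCDD without overlap of the groups (limma, adjusted p = 0.09), Csf1r of macrophages differed by -0.30 and the pan-leukocyte marker Ptprc by -0.03, and Cd3e and Cd79a were too dim to test. Endothelial markers were higher for 5 of 8 and markers of stem and folliculostellate cells for 2 of 7, with means between -0.14 and 0.13 and between -0.31 and 0.36 over the 8 arrays. None of these marker lists held a gene with the array order of the mitosis genes. Only 1.22% of all genes had that order, so lists this short cannot tell anything by holding none. The part of other cell types in the differences was not tested.

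**Figure D3:**
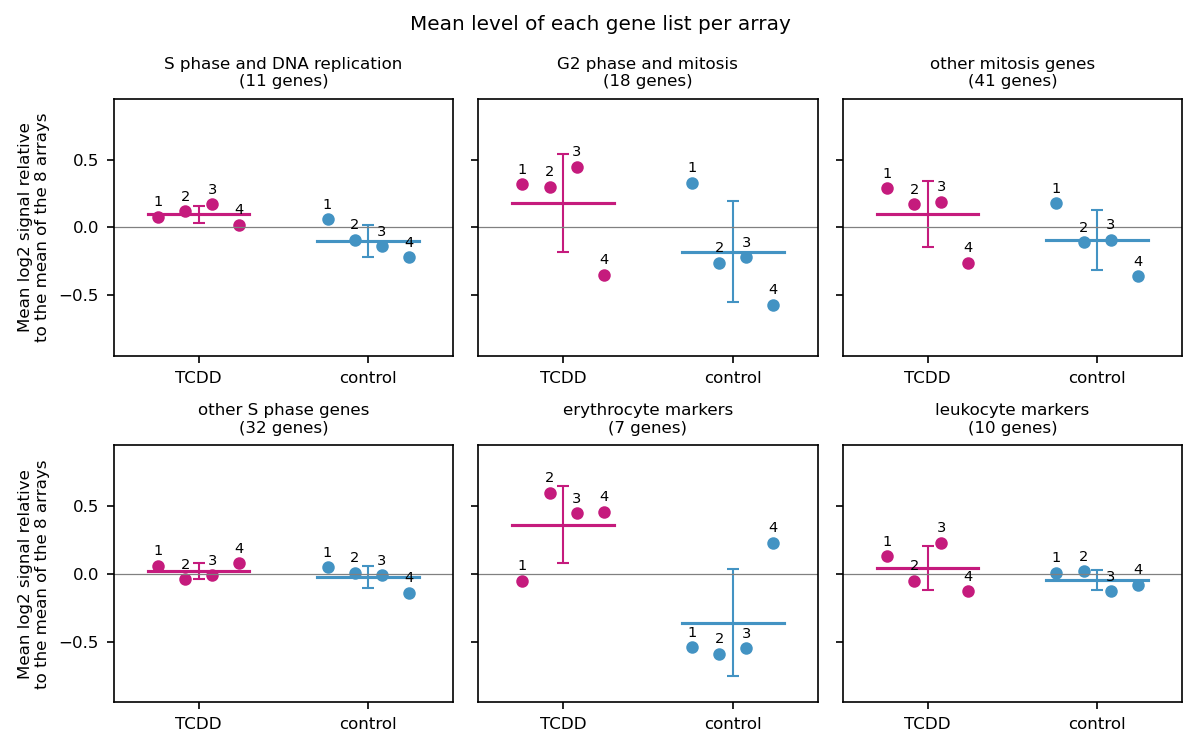
Mean log2 signal of 6 gene lists on each array, relative to the 8-array mean of each gene. Points are arrays numbered by replicate, with TCDD left and control right in each panel, lines are group means and bars are 1 SD (n = 4). The mitosis members and the other mitosis genes give the arrays a like order, with TCDD replicate 4 and control replicate 4 lowest in their groups, while erythrocyte markers give another.

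In the G1 group, 6 of 8 tested genes had a higher TCDD mean, with a median difference of 0.12 and a range of -0.10 to 0.36. Ccne1, the cyclin E that activates Cdk2 at the G1 to S transition, had log2 levels of -3.19, -3.23, -3.03 and -3.62 in TCDD pituitaries, against -3.50, -3.74, -3.69 and -3.61 in control pituitaries. TCDD replicates 1 to 3 lay above all controls, and TCDD replicate 4 lay among them. The difference was 0.36 ± 0.13 (SE; limma, adjusted p = 0.38). Without TCDD replicate 4 it was 0.48, with an adjusted p of 0.19 in limma. Here too the array was singled out by its level, and leaving it out widens the difference by choice.

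E2f1, the transcription factor that Rb1 holds in check, had log2 levels of -1.47, -1.57, -1.60 and -1.93 in TCDD pituitaries, against -1.79, -1.85, -2.11 and -2.06 in control pituitaries. Again TCDD replicate 4 was the one below 2 controls, and the difference was 0.31 ± 0.12 (SE; limma, adjusted p = 0.42). A dimmer second probe for E2f1, well above background on 3 arrays of each group, gave -0.01 ± 0.27 (SE), an error too wide to tell it from the first.

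Cyclin D1, Ccnd1, which pairs with Cdk4 in early G1, had log2 levels of -0.87, -1.14, -0.88 and -1.34 in TCDD pituitaries, against -1.20, -1.33, -1.40 and -1.23 in control pituitaries. TCDD replicate 4 lay inside the control range, and the difference of 0.23 had an interval of -0.03 to 0.50. Ccnd2, cyclin D2, had levels of -0.25, -0.44, 0.07 and -0.39 with TCDD, against -0.24, -0.25, -0.08 and -0.05 in controls. Its difference was -0.10 with an interval of -0.37 to 0.17, and the groups overlapped.

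Their kinases showed small differences. Cdk2, measured on 10 spots, had log2 levels of -2.88, -3.01, -3.08 and -3.14 in TCDD pituitaries, against -3.28, -3.07, -3.37 and -3.02 in control pituitaries. Cdk4 had levels of 1.95, 1.89, 2.06 and 2.04 with TCDD, against 1.88, 1.94, 1.85 and 1.92 in controls. Both pairs of groups overlapped, with differences of 0.16 ± 0.10 (SE) for Cdk2 and 0.09 ± 0.06 (SE) for Cdk4. For Rb1 the interval of the difference was -0.10 to 0.18, and for Ccnd3, cyclin D3, -0.37 to 0.34. Ccne2, the second cyclin E, was too dim to test.

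The 4 CDK inhibitors, which stop cyclin-kinase complexes, had a median difference of 0.06 (limma, adjusted p 0.53 to 0.97). Cdkn1a, or p21, a target of p53, had log2 levels of 4.97, 4.97, 4.81 and 4.78 in TCDD pituitaries, against 4.63, 4.72, 4.72 and 4.84 in control pituitaries. Only control replicate 4 reached into the TCDD range, and the difference was 0.15 ± 0.08 (SE). Under quantile normalization and under normexp, 0 control arrays reached into it, with differences of 0.16 and 0.22 (limma, adjusted p = 0.41 and 0.26). In these settings 679 and 722 of 17364 genes were separated in this direction.

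Cdkn1b, or p27, measured on 10 spots, had log2 levels of 1.00, 1.00, 0.78 and 0.84 in TCDD pituitaries, against 1.05, 1.14, 0.70 and 1.13 in control pituitaries. In 3 of 4 controls it was above all TCDD arrays, and control replicate 3 was below all of them, so the difference was -0.10 with an interval of -0.36 to 0.16. Without control replicate 3 it was -0.20 (limma, adjusted p = 0.52). That array was singled out by its low level of Cdkn1b, so leaving it out widens the difference by choice.

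Cdkn2c, or p18, an inhibitor of Cdk4, had levels of -1.27, -1.49, -1.33 and -1.13 with TCDD, against -1.45, -1.29, -1.51 and -1.28 in controls. Cdkn1c, or p57, had levels of 1.41, 0.44, 0.93 and 0.68 with TCDD, against 1.09, 0.99, 0.94 and 0.28 in controls. The groups overlapped in both, with differences of 0.08 and 0.04, and the second probe of Cdkn1c gave -0.07.

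**Figure D4:**
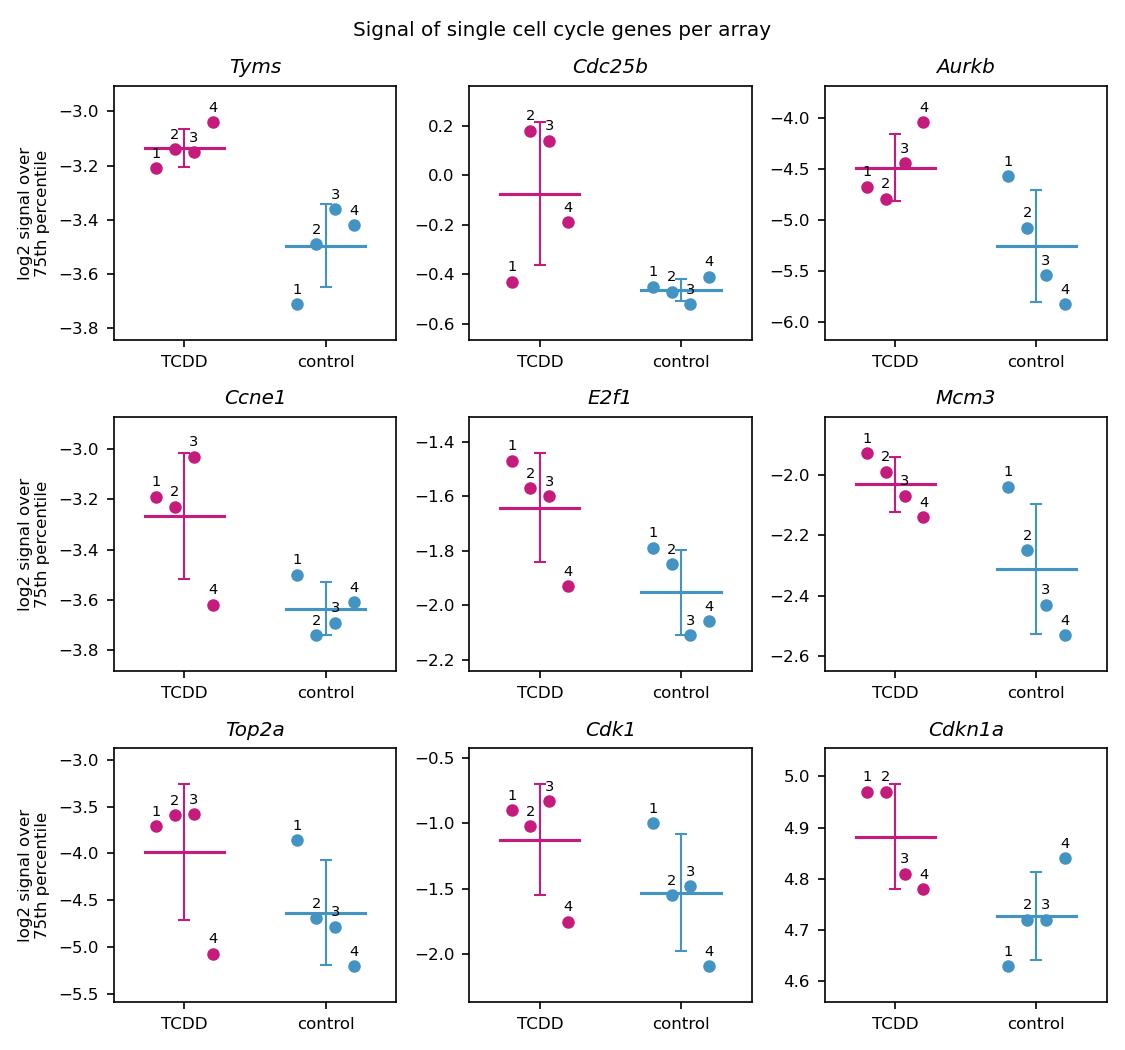
Log2 signal over the array's 75th percentile for 9 genes. Points are arrays numbered by replicate, with TCDD left and control right, lines are group means and bars are 1 SD (n = 4). Tyms is the 1 gene without overlap, and TCDD replicate 4 is the lowest TCDD array in Ccne1, E2f1, Mcm3, Top2a, Cdk1 and Cdkn1a.

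For 8 members 2 probes were kept, and the differences from the brighter and the dimmer probe are given side by side, with no test between them. Ccna2 had 0.46 and 0.45, Mcm3 0.28 and 0.31, and Cdkn1a 0.15 and 0.11. Mcm2 had -0.04 ± 0.10 and 0.07 ± 0.12 (SE), and Cdkn1c 0.04 ± 0.25 and -0.07 ± 0.27 (SE), so the sign turned within the error. For Mcm4 they were 0.16 ± 0.12 and 0.42 ± 0.09 (SE). With the mean of both probes its groups did not overlap, as for 893 of 17364 genes in this direction.

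Genes of the same pathways outside the 47 were taken from lists of known pathway genes, and none passed the test across all genes. Of 32 measured S phase genes 20 had a higher TCDD mean, with a median difference of 0.02, the same as for all genes. At an unadjusted p under 0.05 in limma, 1 of the 32 was higher and 0 lower, against 7.76% and 2.95% of all genes. Rfc5, a subunit of the complex that loads the Pcna clamp, differed by 0.14, Tk1, thymidine kinase, by 0.28, and Prim2, a primase subunit, by -0.33, with unadjusted p-values in limma that did not pass 0.05.

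Of 41 measured mitosis genes outside the list, 31 had a higher TCDD mean, with a median difference of 0.16. The smallest p values belonged to Ncaph, a condensin subunit, with 0.42 ± 0.18 (SE; limma, adjusted p = 0.46), and to Foxm1, a transcription factor of mitosis genes, with 0.16 ± 0.08 (SE; limma, adjusted p = 0.50). Kifc1, Melk and Smc2 followed with 0.49, 0.60 and 0.42.

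Among 12 further G1 and Rb-E2F genes, 8 had a higher TCDD mean, yet the 2 with the smallest p were lower. Cdkn2a, the gene of the inhibitors p16 and Arf, had log2 levels of -1.65, -1.80, -1.62 and -1.74 in TCDD pituitaries, against -1.43, -1.32, -1.39 and -1.24 in control pituitaries. No TCDD array reached any control array, and the difference was -0.36 ± 0.07 (SE; limma, adjusted p = 0.18). Rbl2, a relative of Rb1 that is part of the DREAM complex, had levels of 0.30, 0.26, 0.26 and 0.33 with TCDD, against 0.46, 0.47, 0.59 and 0.41 in controls. Its groups did not overlap either, with a difference of -0.20 ± 0.06 (SE; limma, adjusted p = 0.34), and 1.91% of all genes were separated in this direction. E2f6, Cdkn2b and E2f3 differed by 0.15, -0.16 and 0.22.

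The p53 targets, read because Cdkn1a is one of them, were split evenly, with 6 of 12 higher and a median difference of -0.02. Tp53inp1 differed by -0.22, Plk2 by 0.31, Bbc3 by -0.50, Sesn1 by -0.17 and Btg2 by -0.13 (limma, adjusted p 0.46 to 0.85).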

How the data were processed

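Pituitary RNA of 8 rats was labelled with Cy3 and hybridised to 8 single-colour arrays, per the labels' protocols. Per the file headers, the authors read the images with version 10.7.1.1 of Agilent Feature Extraction. Its processed intensities, as deposited, are linear and background-subtracted. A deposited table of linear intensities for the same arrays served as an alternative. The headers name rn4 as the build of probe positions.

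From the deposited intensities, each array's 75th percentile over non-control spots was subtracted on the log2 scale. Outlier-marked spots were dropped, and a probe's spots averaged. Probes well above background on 4 or more arrays were kept (49 of the members' 58), and a gene's probe with the highest mean was used. Of the tested members 39 were well above background on all 8 arrays. TCDD was compared with control by limma 3.58.1 (R 4.3.3; lmFit, eBayes) over 17364 genes, two-sided, with Benjamini-Hochberg adjustment and a threshold of 0.05. Tyms and the other single members also had an exact permutation test over 70 assignments. The fit was tested on simulated data in which genes varied independently. The members do not, so that test says nothing of them as a set. The number of arrays limits the precision.

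The members and all gene lists were chosen with earlier results of these data known. In each role the 6 members with the smallest unadjusted p have their values on all arrays printed. In each other pathway list the 5 genes with the smallest p are named (some genes that the rule takes are not reported here), and marker lists are given as counts and ranges. Alternatives were quantile normalization, median centring, normexp (offset 50) with quantile normalization, other filters on dim probes, the mean of a gene's probes, outlier spots kept, a variance trend with robust fit, weights for arrays, the deposited table, updated gene names, the replicate block and each array left out. Gene names are those of the array design. Promoters of Aurkb, Ccna2, Ccnd1, Ccnd2, Ccne2, Cdc6, Cdkn1c, E2f1, Mcm4, Rrm2 and Tpx2 were not used here.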

Additional observations from a re-analysis of the deposited data

Results flagged for a closer look

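In 7 of 90 groups of 4 arrays examined (the 41 genes and the 4 role means, TCDD and control apart), 1 array stood away from the other 3. The gap to its nearest neighbour, as a share of the group's range, was above Dixon's 95% critical value for 4 samples, which chance exceeds in about 5% of groups. On TCDD replicate 4 the low values were those of Top2a (0.910), Rrm2 (0.862) and Plk1 (0.8294, only just past it). On control replicate 1 the high values were those of Birc5 (0.911), Mcm6 (0.888), Nusap1 (0.8625) and Ccna2 (0.854). The genes move together, so these are not 7 separate observations.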

How the results depend on the processing

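No member passed the threshold in limma under any of the 20 alternatives, and the lowest adjusted p of a member was 0.17, for Tyms with array weights. Genes past the threshold, 14 of all genes, numbered 1 with quantile normalization, 9 with median centring, 0 with normexp plus quantile normalization (normexp below), 4 with a variance trend and robust fit, 30 with array weights, 1 with the deposited table and 0 with the replicate block, and 0 to 11 with 1 array left out. Members whose groups did not overlap, 1 as reported, numbered 2 of 41 with quantile normalization, normexp, the mean of a gene's probes and the deposited table. All were higher with TCDD. Over all 17364 genes, 679, 722, 893 and 607 were separated that way in these 4 settings, and 468, 503, 298 and 521 the other way. With 1 array left out such members numbered 1 to 9. Over all genes it was then 1157 to 1583 with TCDD higher and 474 to 703 with TCDD lower. The median of the S phase genes, 0.22, was 0.10 with normexp. Medians of the 4 roles otherwise moved by less than the spread between arrays. With 1 array left out, the mitosis median ran from 0.24 to 0.57. At an unadjusted p under 0.05, 1347 of all genes were higher with TCDD and 512 lower, against 1005 and 709 with quantile normalization, 754 and 814 with median centring, 1077 and 846 with normexp, and 936 and 797 with the deposited table. Signs turned under a scaling for Mcm6, Kif20a and Ccnd3. The causes were not tested. Over all genes, samples with the same replicate number did not deviate together (correlations of -0.02, -0.07, -0.03 and -0.10). Each sample correlated best with another number. In the mitosis genes, replicate 4 had the lowest mean of both groups (-0.35 with TCDD, -0.57 in controls). Whether samples with the same number share more than the number was not tested. With the replicate block 12 members, against 6, had an unadjusted p under 0.05 in limma and 0 passed. Of the mitosis genes 7 did, against 2 without the block. Over all genes 1070 were higher and 443 lower at that level. Dim genes such as Bub1b, Kif11 and Cdt1 are limited by their closeness to background.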
